A study of Mus musculus with 18 samples.

Results

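The liver and the skeletal muscle of the same wild-type (WT) mice were compared gene by gene. All arrays of WT liver and of WT muscle were taken, which is 6 of the 18 arrays of the series, and they came from 3 mice that each gave 1 liver array and 1 muscle array. The mice were 10-week-old males of the FVB/N background with no transgene and no treatment, kept with free access to chow on a 12-h light cycle, killed with CO2, and their tissues were flash frozen. The full series also holds fat from these mice and the same tissues from 3 MKR mice, a model of type 2 diabetes of the same background, age and sex in which a mutant IGF-I receptor is expressed in skeletal muscle. Which muscle was taken, and at what time of day, is not given in the sources used here. Expression was measured on Affymetrix Mouse Gene 1.0 ST arrays, whose probe sets cover single exons, and the value of a gene is the mean log2 intensity of its probe sets, so that 1 unit is a 2-fold difference. Values of 3 livers or 3 muscles are given in the order of mice 1, 2 and 3, each difference is liver minus muscle with its standard error (SE), and each adjusted p comes from limma with the mouse as a block and Benjamini-Hochberg adjustment over 20358 genes.

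Liver and skeletal muscle divide the handling of fuel between them. The hepatocyte makes most plasma proteins, disposes of nitrogen as urea, makes glucose for the other organs, and synthesizes bile acids, cholesterol and fatty acids. The muscle fibre is a contractile cell that keeps its own glycogen, takes up glucose through an insulin-responsive transporter, and burns fatty acids and glucose for its own use. Many steps that both tissues carry out are encoded by separate genes for a liver form and a muscle form of the enzyme. Both samples are pieces of tissue that hold blood vessels, immune cells and connective tissue besides the main cell, and in such samples fewer cells of a type and less RNA per cell cannot be told apart.

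The arrays separated by tissue. Over all genes the 3 livers correlated with each other at 0.982 to 0.986 and the 3 muscles at 0.983 to 0.989, against 0.69 to 0.717 between a liver and a muscle. The list of 12 hepatocyte markers averaged 11.73, 11.71 and 11.82 in the livers and 6.44, 5.69 and 5.31 in the muscles, and all 12 genes were higher in liver. The list of 12 muscle fibre markers averaged 4.97, 5.26 and 5.13 in the livers and 12.03, 11.97 and 12.01 in the muscles, and all 12 were higher in muscle. Each tissue thus carried the markers of its label. A few arrays stood apart in single groups of genes, namely the muscle of mouse 1 in hepatocyte products and in slow fibre genes, the liver of mouse 2 in acute phase genes, and both tissues of mouse 3 in clock genes. For some of the genes that rest on these arrays, differences without that mouse are given as well.

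Of 20358 genes, 3870 (19%) were higher in liver and 4475 (22.0%) were higher in muscle at an adjusted p under 0.05, and 12013 did not pass. With a difference of at least 2-fold as well, 1704 genes (8.37%) were higher in liver and 1762 (8.66%) in muscle. All 3 liver values lay above all 3 muscle values for 4937 genes (24.3%), and all 3 muscle values lay above all 3 liver values for 5269 genes (25.9%). These shares are the background for every count of list members that follows, and the median difference over all genes was 0.01. The split between the tissues shifted mainly when each array was centred on its ribosomal protein genes. Liver held 46.4% of the calls in the main fit, 45.3% with arrays centred on the median and 44.4% with quantile normalization of the 6 arrays. Under ribosomal centring it held 35.2%, with 2785 and 5137 calls. That centring also moved the median difference of the ribosomal protein genes themselves away from 0, from -0.03 to -0.15. A difference of 5 or more, which is 32-fold, was reached by 181 genes in liver and 89 in muscle. The median SD among the 3 mice was 0.15 in liver and 0.13 in muscle, so the median SE of a difference was 0.12. The p-values rest on the spread of the liver minus muscle difference among these 3 mice, moderated towards the spread of all genes. Without that moderation 1311 genes were called in liver and 1288 in muscle. An exact paired test on a single gene could not go below p = 0.25 (two-sided).

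Plasma proteins and enzymes of amino acid breakdown filled most of the 20 genes with the largest excess in liver. Tdo2 encodes tryptophan dioxygenase, the first enzyme of tryptophan breakdown. Its level was 12.31, 12.18 and 12.49 in the livers and 5.72, 4.43 and 4.07 in the muscles, a difference of 7.59 (SE 0.27, adjusted p = 1.69e-08). The precursor of alpha-1-microglobulin and bikunin, Ambp, was measured at 12.37, 12.57 and 12.40 in the livers and 5.16, 4.98 and 4.74 in the muscles (difference 7.49, SE 0.13). Cps1, the mitochondrial entry enzyme of the urea cycle, reached 12.40, 12.14 and 12.39 in the livers and 5.66, 4.78 and 4.54 in the muscles (difference 7.32, SE 0.19). Only called genes with no overlap of tissues could enter the 20, so the separation of liver and muscle values was set by that choice. The fatty acid transport protein Slc27a2 differed by 7.48 and the fatty acid binding protein Fabp2 by 7.44. Cyp1a2, a cytochrome P450 that oxidizes aromatic amines and caffeine, was 7.28 higher in liver (SE 0.12, adjusted p = 3.85e-10). Further members were Mat1a (7.17), which makes the methyl donor S-adenosylmethionine, Tat (7.25) and Hpd (7.03), both of tyrosine breakdown, and Uox (7.30), the urate oxidase. Secreted proteins among the 20 were the fibrinogen gamma chain Fgg (7.34), the serum amyloid Saa4 (7.49), the corticosteroid carrier Serpina6 (7.32), fetuin A (Ahsg, 7.17), Apoh (7.13), Itih4 (7.11) and Apob (6.99). The remaining genes were Slc22a30 (7.30), Akr1c6 (7.28) and Cyp4a32 (7.0).

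The contractile apparatus and its calcium and fuel supply made up the 20 genes with the largest excess in muscle. Parvalbumin (Pvalb), which buffers calcium in fast fibres, was the first of them. It read 4.43, 4.69 and 4.60 in the livers and 12.56, 12.58 and 12.51 in the muscles, a difference of -7.97 (SE 0.12, adjusted p = 3.85e-10). Myh4, the myosin heavy chain of type 2B fibres, stood at 4.69, 4.98 and 5.14 in the livers and 12.60, 12.59 and 12.76 in the muscles (difference -7.71, SE 0.12). The giant spring protein titin (Ttn) gave 4.85, 5.07 and 4.97 in the livers and 12.58, 12.57 and 12.72 in the muscles (difference -7.66, SE 0.12). The muscles were nearly alike for these genes, which were chosen by the same rule as the liver genes. Other sarcomere members were Myot (-7.66), Xirp2 (-7.62), Myh1 (-7.58), Mybpc2 (-7.30), Actn3 (-7.29), Tnnc2 (-7.22), Acta1 (-7.21), Mylpf (-7.17), Mybpc1 (-6.81) and Myom1 (-6.80). Calcium handling was represented by the store protein Casq1 (-7.34) and the calcium pump Atp2a1 (-7.20). Fuel use was represented by Ppp1r3a (-7.55), which targets a phosphatase to glycogen, by glycogen phosphorylase Pygm (-7.24) and by the cytochrome oxidase subunit Cox8b (-6.93). The kinase Mylk4 (-7.53) and Cmya5 (-6.97), a large protein of the muscle cytoskeleton, completed the 20.

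**Figure D1:**
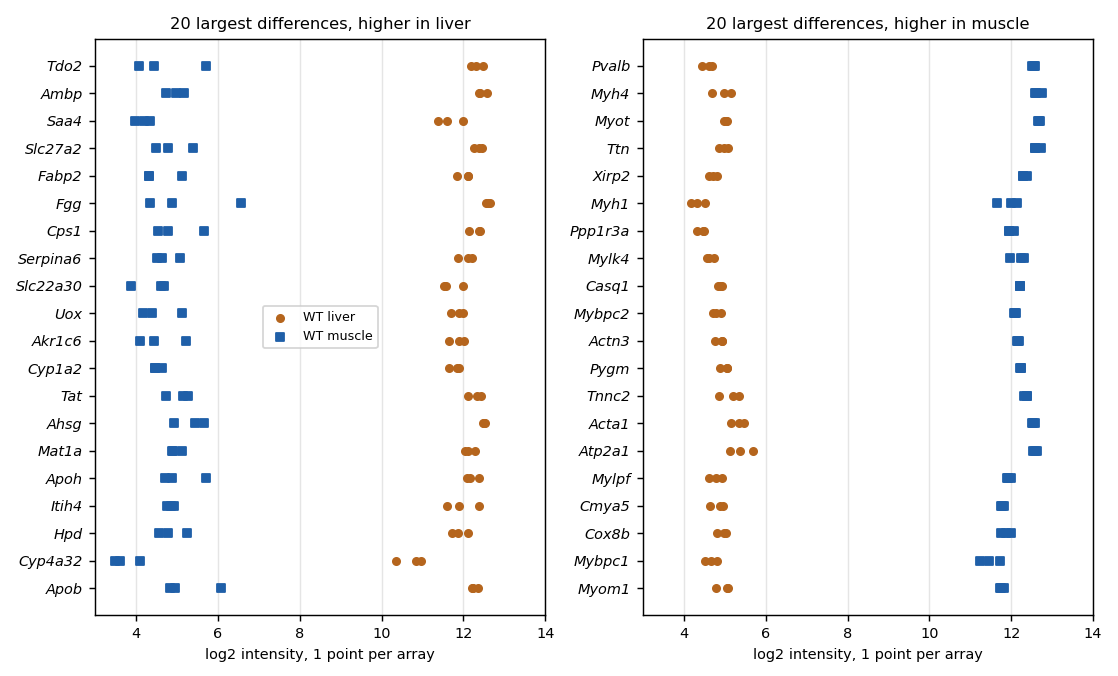
Log2 intensity of each WT array for the 20 genes with the largest excess in liver (left panel) and in muscle (right panel), with circles for livers and squares for muscles. Each row holds 3 livers and 3 muscles of the same mice, and only called genes with no overlap of tissues could be chosen. The differences run from 6.99 to 7.59 in the left panel and from -6.80 to -7.97 in the right one.

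Promoters are shown for 3 genes of each tissue, because letters known as binding motifs of liver or muscle factors were more frequent before the starts of the genes with the largest differences. The sequences run from 250 bases before to 50 bases after the start of transcription in the RefSeq table for GRCm38.p6, 5′ to 3′ on the strand of the gene. Capitals mark matches to a set of motifs chosen for each gene. Matches to motifs of the other tissue's factors also occur and were left in lower case. Examples are the E-box in Fabp1, a MEF2 match in Cyp2c70 and a C/EBP match in Myh4. In the 3 liver genes the marked motifs are the TATA box (TATAAA), the half-site of HNF1 (GTTAAT), the HNF4 site (CAAAGTCCA) and the C/EBP site (TTGCNNAA). In the 3 muscle genes they are the TATA box, the myogenic E-box (CAGCTG), the MCAT element (CATTCC), the CArG box of serum response factor and the MEF2 site. The genes shown were chosen after the motif counts were seen. Albumin (Alb), the fatty acid binding protein Fabp1 and the bile acid hydroxylase Cyp2c70 stand for liver, and Myh4, skeletal actin Acta1 and the phosphoglycerate mutase Pgam2 stand for muscle.
Alb, chr5:90460620-90460919 (+): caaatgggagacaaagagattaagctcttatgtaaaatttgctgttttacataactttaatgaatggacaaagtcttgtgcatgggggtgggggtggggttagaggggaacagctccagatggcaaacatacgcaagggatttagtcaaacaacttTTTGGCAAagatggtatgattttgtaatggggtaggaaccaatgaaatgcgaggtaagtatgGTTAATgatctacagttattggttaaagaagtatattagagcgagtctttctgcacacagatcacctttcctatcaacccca
Fabp1, chr6:71199629-71199928 (+): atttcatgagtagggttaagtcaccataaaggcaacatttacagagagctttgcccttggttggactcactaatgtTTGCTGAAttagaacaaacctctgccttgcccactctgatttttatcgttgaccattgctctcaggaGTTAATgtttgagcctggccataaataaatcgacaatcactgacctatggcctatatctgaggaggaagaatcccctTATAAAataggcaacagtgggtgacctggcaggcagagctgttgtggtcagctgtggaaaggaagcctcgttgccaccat
Cyp2c70, chr19:40187237-40187536 (-): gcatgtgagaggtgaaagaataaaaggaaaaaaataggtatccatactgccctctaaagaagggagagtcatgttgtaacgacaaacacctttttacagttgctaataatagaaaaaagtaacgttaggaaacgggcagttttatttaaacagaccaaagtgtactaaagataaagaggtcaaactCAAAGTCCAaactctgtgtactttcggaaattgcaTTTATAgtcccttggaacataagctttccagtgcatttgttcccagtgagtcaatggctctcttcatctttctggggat
Myh4, chr11:67237562-67237861 (+): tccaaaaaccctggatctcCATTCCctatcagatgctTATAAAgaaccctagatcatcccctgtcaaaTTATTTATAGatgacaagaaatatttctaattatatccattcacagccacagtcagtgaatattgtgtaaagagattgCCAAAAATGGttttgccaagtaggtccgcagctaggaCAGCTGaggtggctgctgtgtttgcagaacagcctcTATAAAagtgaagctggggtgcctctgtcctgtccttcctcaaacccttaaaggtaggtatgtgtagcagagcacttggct
Acta1, chr8:123894726-123895025 (-): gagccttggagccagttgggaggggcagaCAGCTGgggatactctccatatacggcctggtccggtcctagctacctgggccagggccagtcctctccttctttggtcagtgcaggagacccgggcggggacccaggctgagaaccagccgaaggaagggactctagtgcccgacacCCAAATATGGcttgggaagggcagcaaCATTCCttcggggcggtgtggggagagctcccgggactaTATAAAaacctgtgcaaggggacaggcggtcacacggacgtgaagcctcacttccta
Pgam2, chr11:5803747-5804046 (-): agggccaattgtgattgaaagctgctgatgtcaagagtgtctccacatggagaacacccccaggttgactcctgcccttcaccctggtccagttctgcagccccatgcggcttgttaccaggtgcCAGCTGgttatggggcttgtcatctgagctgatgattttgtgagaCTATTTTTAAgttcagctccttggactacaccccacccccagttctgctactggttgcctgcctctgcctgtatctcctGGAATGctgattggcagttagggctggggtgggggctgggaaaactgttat

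Both strands were searched, a gene counted if any of its promoters held the letters, and a MEF2 site can overlap a TATA box. Of 27025 genes with a promoter in the table, 8.2% held GTTAAT, against 26.2% of the 141 genes with a promoter among the 181 that were 32-fold higher in liver, and 5.9% of 68 among the 89 that were 32-fold higher in muscle. TTGCNNAA was found in 27.7% of these liver genes, in 11.8% of these muscle genes and in 12.2% of all. CAAAGTCCA was found in 5.0%, 0.0% and 0.6%. For the muscle factors the order was turned. CAGCTG occurred in 13.5% of the liver genes, 39.7% of the muscle genes and 18.3% of all, the MEF2 site in 7.8%, 20.6% and 3.7%, and the CArG box in 1.4%, 8.8% and 1.8%. CATTCC occurred in 18.4%, 26.5% and 16.6%, and TATAAA was more frequent in both classes, at 29.1% and 32.4% against 15.7% of all. In the larger classes of at least 2-fold the shares lay nearer to all genes, with GTTAAT in 10.4% of 1342 liver genes and CAGCTG in 23.2% of 1377 muscle genes. Both classes hold only genes measured on the arrays. Among the 15765 genes with a promoter that the arrays measured, GTTAAT was in 7.1%, TTGCNNAA in 11.4%, CAAAGTCCA in 0.6% and CAGCTG in 18.5%. In the same genes the MEF2 site was in 3.0%, the CArG box in 1.7%, CATTCC in 15.3% and TATAAA in 13.7%. All these shares are counts of letters with no test, and factor binding was not measured.

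Nearly every measured gene for a secreted plasma protein was higher in liver. All 19 coagulation and fibrinolysis factors passed, with a median difference of 5.74. Coagulation factor IX (F9) was 6.70 higher (SE 0.17) and the antifibrinolytic carboxypeptidase Cpb2 6.67 higher (SE 0.14). All 18 complement proteins passed as well, with a median of 4.98, and the largest were C8b (6.93), C9 (6.86), C4bp (6.36) and C8a (6.22), of which C8 and C9 form the membrane pore and C4bp restrains the cascade. Of 29 plasma carriers and protease inhibitors 27 were higher in liver, with a median of 5.60. A1bg was the exception, at 4.27, 4.27 and 4.37 in the livers and 5.04, 4.81 and 4.79 in the muscles (difference -0.57, SE 0.12, adjusted p = 0.00386). The A1bg values lay near 5 or lower in both tissues, a level at which expression was not shown. Serpina3k did not pass (0.34, adjusted p = 0.148). Of 20 genes of lipoproteins and their handling 18 were higher in liver, among them Apoc1 (6.54), an apolipoprotein of very low and high density lipoproteins, and Apob, which forms the lipoprotein particle. The exceptions were lipoprotein lipase Lpl, which frees fatty acids from lipoproteins at the vessel wall, and its anchor Gpihbp1. Lpl was measured at 6.04, 5.46 and 5.63 in the livers and 10.54, 9.91 and 10.39 in the muscles (difference -4.57, SE 0.12, adjusted p = 1.91e-09). Gpihbp1 differed by only -0.46 (adjusted p = 0.0338), and the call was lost without mouse 2 or 3 (adjusted p = 0.0551 and 0.187).

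The muscle of mouse 1 held more of the abundant hepatocyte transcripts than the other muscles. Alb read 12.90, 12.83 and 12.91 in the livers and 9.89, 7.73 and 5.46 in the muscles (difference 5.19, SE 0.61, adjusted p = 8.45e-05). Fabp1 read 12.71, 12.59 and 12.78 in the livers and 8.01, 5.68 and 4.76 in the muscles, and hepcidin (Hamp), the hormone of iron export, 12.81, 12.76 and 12.82 in the livers and 7.87, 6.21 and 5.66 in the muscles. The livers lay close together while the muscles were spread, with mouse 1 highest for each of these genes. Of the 181 genes that were 32-fold higher in liver, 114 had their highest muscle value in mouse 1, 36 in mouse 2 and 31 in mouse 3, and 16, 0 and 0 of them lay more than 1 above the median muscle there. Without mouse 1 the differences were larger, 6.28 for Alb, 7.46 for Fabp1 and 6.85 for Hamp, and 177 of the 181 genes still reached 32-fold. The 12 hepatocyte markers had a median of 5.98 with all mice and 6.52 without mouse 1. The source of these transcripts in the muscle of mouse 1 was not tested.

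Genes of amino acid breakdown outside the branched chains and of the urea cycle were mostly higher in liver. Of 31 genes of amino acid breakdown outside the branched chains 30 were higher in liver, with a median of 3.82. The exception was the cytosolic aspartate aminotransferase Got1, a member of the malate-aspartate shuttle, with 11.01, 10.12 and 10.92 in the livers and 11.59, 11.44 and 11.54 in the muscles (difference -0.84, SE 0.16, adjusted p = 0.00195). Of 9 urea cycle genes 7 were higher in liver, including Otc (5.93), Arg1 (5.43) and Asl (4.46) beside Cps1, with a list median of 4.42. Glutamine synthetase Glul, which binds ammonia in both tissues, gave 9.93, 9.98 and 10.22 in the livers and 10.06, 9.93 and 9.75 in the muscles and did not pass (0.13, adjusted p = 0.512). Ass1, the argininosuccinate synthase of the cycle, did not pass either and stayed at low intensity in both tissues, with 3.99, 4.43 and 5.01 in the livers and 4.54, 4.48 and 3.90 in the muscles. Whether the probe sets of Ass1 report its transcript was not tested, so these values do not show that it is low in liver.

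Branched-chain amino acids are known to be transaminated mostly outside the liver and oxidized in both tissues, and these genes were split between the tissues. Bcat2, the mitochondrial transaminase of the first step, stood at 6.01, 6.19 and 6.67 in the livers and 7.69, 7.38 and 6.98 in the muscles (difference -1.06, SE 0.22, adjusted p = 0.00327). The subunits of the next enzyme, the ketoacid dehydrogenase, were higher in liver for Bckdhb (1.72, SE 0.14) and Dbt (0.93, SE 0.15). Its inhibitory kinase Bckdk was higher in muscle, with 6.14, 6.29 and 6.44 in the livers and 9.16, 9.05 and 9.0 in the muscles (difference -2.78, SE 0.13, adjusted p = 9.4e-08). Its activating phosphatase Ppm1k was higher in liver, with 9.12, 8.77 and 8.98 in the livers and 7.81, 6.95 and 7.05 in the muscles (difference 1.68, SE 0.14, adjusted p = 7.97e-06). Bckdhb, Dbt and Ppm1k thus lay on the opposite side from Bckdk, with no overlap of tissues for any of these genes. Dld, the subunit that the dehydrogenase shares with other complexes, was higher in muscle (-0.93). In the whole pathway 11 of 25 genes were higher in liver and 4 in muscle, with a median of 0.38, and the fourth gene on the muscle side was Auh (-0.89). The median was 0.17 without mouse 3 and 0.25 under ribosomal centring, with counts of 9 and 5. Ivd (0.46, adjusted p = 0.0541) and Pcca (0.38, adjusted p = 0.0811) were among the 10 that did not pass.

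Genes of glucose release were mostly higher in liver, while those of glycogen and glycolysis were spread over both tissues in different gene forms. In the list of gluconeogenesis and glucose release 9 of 11 genes were higher in liver, with a median of 2.81. That list also held Slc2a2, Gckr, Khk, Tkfc and Pklr, which are not enzymes of gluconeogenesis. Pck1, which makes phosphoenolpyruvate from oxaloacetate, was measured at 11.37, 11.15 and 11.40 in the livers and 5.06, 5.10 and 4.99 in the muscles (difference 6.26, SE 0.12, adjusted p = 5.33e-10). G6pc, the phosphatase that frees glucose, gave 10.39, 9.44 and 10.77 in the livers and 4.38, 4.33 and 4.49 in the muscles (difference 5.80, SE 0.20). The glucose 6-phosphate carrier Slc37a4 (0.43, adjusted p = 0.0916) and the mitochondrial Pck2 (0.17, adjusted p = 0.322) did not pass. In glycolysis 6 of 26 genes were higher in liver and 16 in muscle, with a median of -1.11, and in glycogen metabolism 6 of 19 were higher in liver and 11 in muscle, with a median of -1.23. Hexokinase Hk2, which traps glucose in the fibre, was at 4.61, 4.87 and 4.55 in the livers and 9.08, 9.08 and 9.70 in the muscles (difference -4.61, SE 0.17). The brain-type aldolase Aldoc was on the other side, 2.80 higher in liver (SE 0.12).

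All measured genes of bile acid synthesis and nearly all of drug metabolism were higher in liver. All 16 genes of bile acid synthesis and transport were higher in liver, with a median of 5.15. Cyp7a1, the rate-limiting enzyme of bile acid synthesis, read 10.62, 10.88 and 10.58 in the livers and 4.55, 4.57 and 4.62 in the muscles (difference 6.12, SE 0.12, adjusted p = 5.51e-10). The canalicular pumps Abcc2 (6.40) and Abcb11 (6.17), which export conjugates and bile salts, and the basolateral uptake carrier Slco1b2 (6.69) were of the same size. All 19 genes of the cytochrome P450 families 1 to 3 and their reductase were higher in liver, with a median of 5.15, among them Cyp2j5 (6.78), Cyp3a25 (6.49) and Cyp2c70 (6.36). Of 20 conjugation enzymes 18 were higher in liver, with a median of 3.83, led by the glutathione transferase Gsta3 (6.71), the sulfotransferase Sult1d1 (6.62) and the glucuronosyl- and glycosyltransferases Ugt3a2 (6.48) and Ugt2b34 (6.46). Gstm2 (0.38, adjusted p = 0.121) and Nnmt (0.58, adjusted p = 0.0532) did not pass. Among 15 genes whose liver expression is known to depend on sex in mice, 13 were higher in these male livers. The male-predominant Cyp4a12a gave 11.16, 11.07 and 11.25 in the livers and 4.96, 4.28 and 4.24 in the muscles (difference 6.67, SE 0.16), whereas the female-predominant Cyp2b13 (0.21, adjusted p = 0.24) and Sult3a1 (0.13, adjusted p = 0.433) did not pass and read under 5 in every array. All 6 major urinary protein genes were higher in liver, with a median of 4.11. Members of the P450, Ugt, Saa, Serpina and Mup families are near-identical copies that can share probes, so the level of a single member is uncertain.

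Genes of fatty acid and cholesterol synthesis were mostly higher in liver, and those of mitochondrial fatty acid oxidation were split. All 19 genes of cholesterol synthesis passed in the direction of liver, with a median of 2.37. The sterol methyl oxidase Msmo1 gave 9.94, 10.29 and 10.79 in the livers and 5.62, 5.37 and 5.19 in the muscles (difference 4.95, SE 0.21), followed by Idi1 (4.07), Sqle (3.59) and Sc5d (3.31). In fatty acid synthesis and elongation 12 of 15 genes were higher in liver, with a median of 2.30, led by the desaturases Fads2 (5.57) and Fads1 (4.77). Malic enzyme Me1, which supplies NADPH, was the single gene on the muscle side, at 9.72, 9.19 and 9.50 in the livers and 10.01, 9.98 and 9.76 in the muscles (difference -0.45, adjusted p = 0.025), and the call was lost without mouse 2 (-0.28, adjusted p = 0.185). All 17 peroxisomal genes were higher in liver, with a median of 1.90, among them the hydroxyacid oxidase Hao1 (5.61), the dienoyl-CoA reductase Decr2 (4.31) and the sterol carrier Scp2 (3.92). Of 19 genes of mitochondrial beta-oxidation 9 were higher in liver and 3 in muscle, with a median of 0.34 that fell to 0.18 without mouse 3. On the liver side stood Cpt1a (3.83), the liver form of the carnitine transferase, Eci2 (1.77) and Acaa2 (1.66), and on the muscle side Cpt1b (-3.70), Hadhb (-0.90) and Acadl (-0.55). The electron carrier Etfa (0.27, adjusted p = 0.105) and the carnitine carrier Slc25a20 (0.34, adjusted p = 0.107) did not pass.

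Fatty acid uptake was split between members for each tissue, with 8 of 14 genes higher in liver, 6 in muscle and none that failed. The scavenger receptor Cd36, which carries fatty acids across the fibre membrane, read 6.86, 6.57 and 6.54 in the livers and 11.20, 11.21 and 11.42 in the muscles (difference -4.62, SE 0.13, adjusted p = 3.65e-09). The heart and muscle binding protein Fabp3 read 5.02, 4.91 and 4.91 in the livers and 11.53, 11.15 and 11.74 in the muscles (difference -6.52, SE 0.14). Acyl-CoA synthetase Acsl3 (-1.52) was higher in muscle too, and the bile acid and fatty acid ligase Slc27a5 (5.01) in liver. For ketone bodies, 3 genes of use were measured. Oxct1, the enzyme that activates acetoacetate outside the liver, gave 5.99, 5.99 and 6.35 in the livers and 10.87, 10.61 and 10.71 in the muscles (difference -4.62, SE 0.13). The hydroxybutyrate dehydrogenase Bdh1 was 1.75 higher in liver (SE 0.14), and the thiolase Acat1 did not pass (0.24, adjusted p = 0.372).

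**Figure D2:**
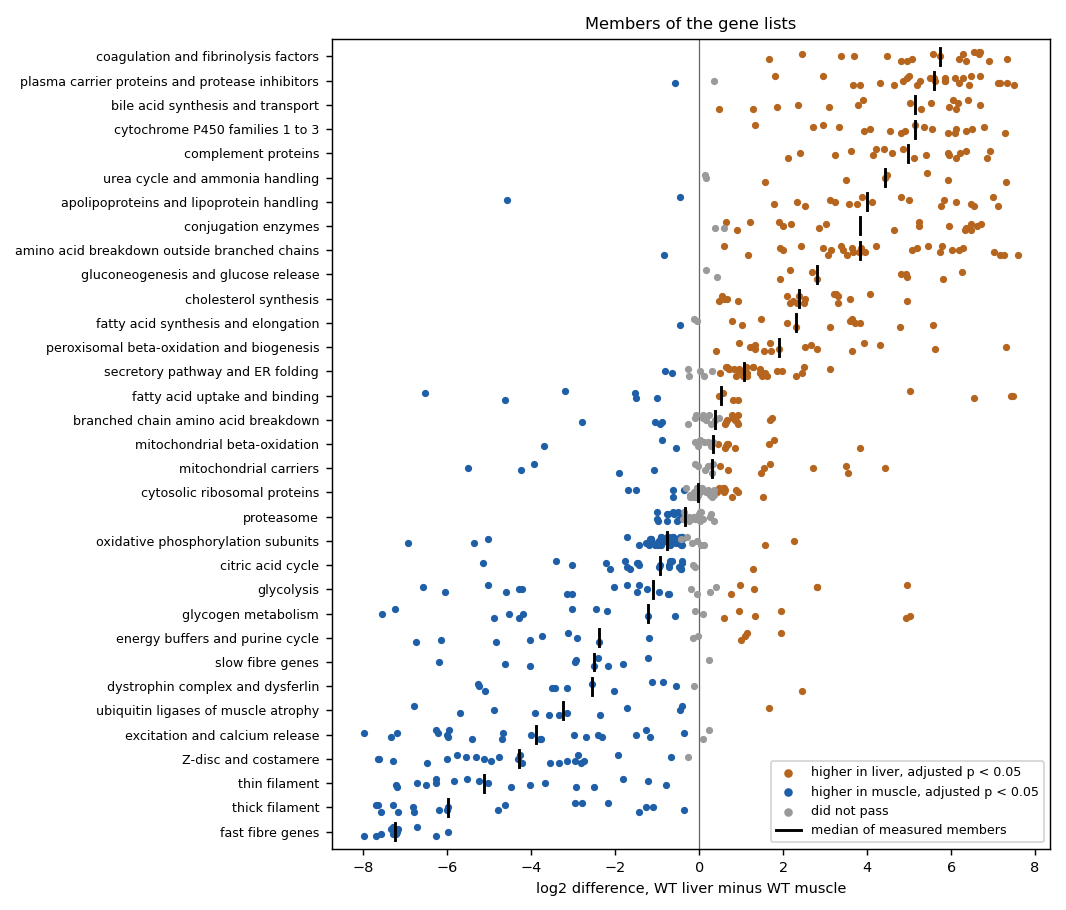
Log2 difference between WT liver and WT muscle for each measured member of 33 gene lists, with orange points higher in liver, blue points higher in muscle (both at an adjusted p under 0.05), grey points that did not pass and a black bar at the list median. The medians run from 5.74 for coagulation factors at the top to -7.25 for fast fibre genes at the bottom, against 0.01 over all genes.

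The sarcomere was higher in muscle without exception among measured thick and thin filament genes. All 19 thick filament genes passed, with a median of -5.99, and all 18 thin filament genes, with a median of -5.13. Troponin T of fast fibres (Tnnt3) was at 5.74, 6.06 and 6.08 in the livers and 12.71, 12.66 and 12.72 in the muscles (difference -6.73, SE 0.12), and cardiac actin Actc1, which skeletal muscle also expresses, at 4.87, 5.19 and 5.11 in the livers and 11.84, 11.71 and 11.15 in the muscles (difference -6.50, SE 0.17). In the Z-disc and costamere, which anchor the filaments, 23 of 24 genes were higher in muscle, with a median of -4.30, for example Actn2 (-6.48) and desmin (Des, -5.77). Pdlim5 did not pass (-0.27, adjusted p = 0.0901). Excitation and calcium release had 22 of 24 genes higher in muscle, with a median of -3.90, among them the histidine-rich calcium binding protein Hrc (-6.28). Sarcolipin (Sln), an inhibitor of the calcium pump, read under 5 in every array and did not pass (0.08, adjusted p = 0.649).

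Proteins that tie the fibre to its matrix and nerve were less uniform. In the dystrophin complex 11 of 13 genes were higher in muscle, with a median of -2.55. Dystrophin (Dmd) stood at 5.50, 5.56 and 5.44 in the livers and 10.58, 10.60 and 10.60 in the muscles (difference -5.09, SE 0.11, adjusted p = 8.72e-10), and the sarcoglycans Sgcd (-5.27) and Sgcb (-5.25) were of the same size. Syntrophin Sntb1 was on the other side, with 9.40, 9.34 and 9.88 in the livers and 7.31, 7.14 and 6.81 in the muscles (difference 2.45, SE 0.18). Utrophin (Utrn), the widely expressed relative of dystrophin, did not pass (-0.12, adjusted p = 0.455). At the neuromuscular junction 6 of 12 genes were higher in muscle and 1 in liver, with a median of -0.63. The receptor kinase Musk (-4.08), the acetylcholine receptor subunits Chrna1 (-2.48) and Chrnb1 (-2.31) and the adult subunit Chrne (-1.30) were higher in muscle. Agrin (Agrn) was slightly higher in liver (0.34, adjusted p = 0.0388), a call that was lost without any 1 of the mice (adjusted p = 0.0853 to 0.146), and Chrnd did not pass (-0.36, adjusted p = 0.0538).

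Fast fibre genes were even among the mice and slow fibre genes were not. The 12 fast fibre genes averaged 4.85, 5.14 and 5.02 in the livers and 12.17, 12.12 and 12.16 in the muscles. All 12 passed, with a median of -7.25. Their muscle means lay high on a scale that ended at 14.15, and whether differences are compressed at that level was not tested. The 11 slow fibre genes averaged 5.81, 5.98 and 5.78 in the livers and 9.88, 7.97 and 8.08 in the muscles, and 10 passed, with a median of -2.52. The slow myosin Myh7 read 4.95, 5.04 and 5.07 in the livers and 9.04, 6.37 and 6.15 in the muscles. The slow light chains followed, Myl2 at 11.20, 8.49 and 9.45 and Myl3 at 9.99, 6.99 and 6.61 in the muscles, with 4.90 to 5.30 and 4.86 to 4.98 in the livers. Slow troponin C (Tnnc1) was at 10.62, 8.25 and 7.48 in the muscles and 5.88 to 6.62 in the livers. The muscle of mouse 1 was thus far above the other muscles for these genes, at the same level of fast fibre genes. Without mouse 1 the list had 9 genes higher in muscle and 1 in liver, with a median of -1.88. The differences then shrank to -1.21 for Myh7, which was -2.17 with all mice, to -1.88 for Myl3 (-2.95 with all mice) and to -1.62 for Tnnc1 (-2.52 with all mice), all still past the threshold. The slow calcium pump Atp2a2, which liver also expresses, was at 10.77, 10.63 and 11.01 in the livers and 11.25, 10.06 and 10.40 in the muscles and did not pass (0.23, adjusted p = 0.406), but without mouse 1 it was higher in liver (0.59, adjusted p = 0.0144). Whether the piece of muscle differed in its make-up of fibres was not tested.

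**Figure D3:**
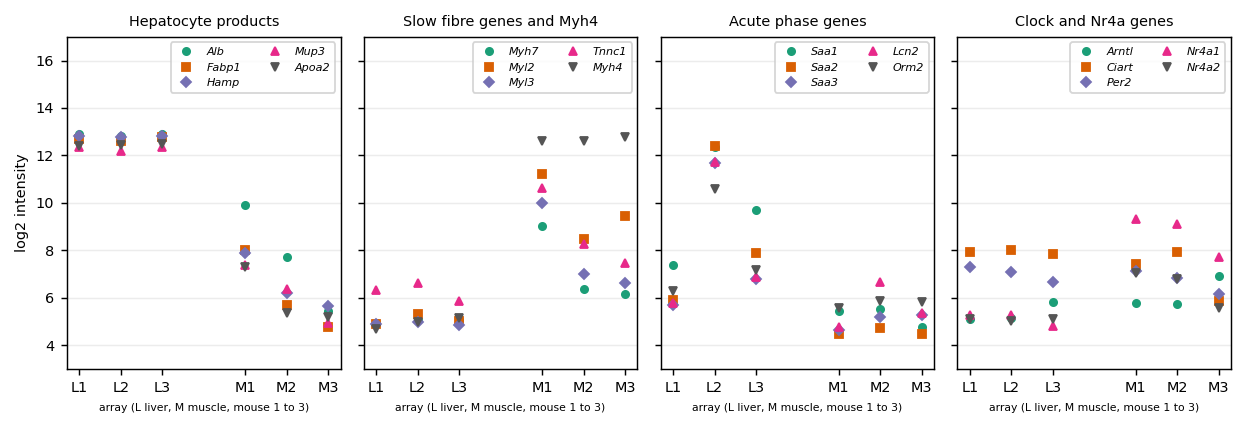
Log2 intensity in each of the 6 WT arrays (L1 to L3 livers, M1 to M3 muscles of mice 1 to 3) for hepatocyte products, slow fibre genes with the fast myosin Myh4, acute phase genes, and clock and Nr4a genes. Alb is spread over the muscles at 9.89, 7.73 and 5.46, Myh7 is high in M1 alone at 9.04, Saa2 is highest in L2 at 12.40, and Arntl is highest in mouse 3 in both tissues, at 5.81 in liver and 6.90 in muscle.

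Mitochondrial energy genes were higher in muscle by moderate steps. Of 58 subunits of oxidative phosphorylation 50 were higher in muscle and 2 in liver, with a median of -0.76. The largest differences belonged to the muscle forms of cytochrome oxidase, Cox8b (-6.93), Cox7a1 (-5.37) and Cox6a2 (-5.03), and a subunit without tissue forms such as Ndufb5 of complex I gave 8.42, 7.90 and 8.42 in the livers and 10.05, 10.00 and 9.87 in the muscles (difference -1.73, SE 0.14). In the citric acid cycle with pyruvate dehydrogenase 22 of 25 genes were higher in muscle, with a median of -0.93, for example the isocitrate dehydrogenase subunit Idh3a (-3.03), the phosphatase Pdp1 (-3.40), which activates pyruvate dehydrogenase, and its subunit Pdha1 (-2.23). The single gene on the liver side was Suclg2, the GTP-forming succinyl-CoA ligase subunit, at 10.16, 10.12 and 10.41 in the livers and 9.24, 8.82 and 8.76 in the muscles (difference 1.29, SE 0.15). Malate dehydrogenase Mdh1 did not pass (-0.10, adjusted p = 0.533). Mitochondrial carriers had 9 of 20 genes higher in liver and 5 in muscle, with a median of 0.31 that was 0.48 without mouse 2. The citrate carrier Slc25a1 (3.54), which feeds fatty acid synthesis, the ornithine carrier Slc25a15 (3.50) and Slc25a47 (2.70) were higher in liver, and Ucp3 (-3.93), the oxoglutarate carrier Slc25a11 (-1.91) and the phosphate carrier Slc25a3 (-1.08) in muscle.

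Genes that buffer adenosine triphosphate were higher in muscle, and those that make the buffer were higher in liver. Of 15 genes of energy buffers and the purine cycle 9 were higher in muscle and 4 in liver, with a median of -2.39. The mitochondrial creatine kinase Ckmt2 was at 4.38, 4.62 and 4.54 in the livers and 10.80, 10.55 and 10.67 in the muscles (difference -6.16, SE 0.13), and myoglobin (Mb) at 4.91, 5.06 and 4.73 in the livers and 9.29, 8.51 and 9.03 in the muscles (difference -4.04, SE 0.18). Creatine itself is made by Gatm and Gamt. Gamt was at 8.47, 8.12 and 8.03 in the livers and 6.42, 6.32 and 6.04 in the muscles (difference 1.95, SE 0.12), and Gatm was 1.10 higher in liver (SE 0.11). The ubiquitous mitochondrial kinase Ckmt1 did not pass (-0.03, adjusted p = 0.879).

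Pairs of genes that encode a liver form and a muscle form of the same enzyme or transporter were crossed in 23 of 32 measured pairs, with the liver form called higher in liver and the muscle form called higher in muscle. The pairs were chosen for their known forms, so the crossing describes these genes and has no test of its own. Glycogen phosphorylase was among the widest. Pygl, the liver form, stood at 10.47, 9.93 and 10.57 in the livers and 5.16, 5.53 and 5.50 in the muscles (difference 4.92), and Pygm at 4.87, 5.04 and 5.06 in the livers and 12.24, 12.21 and 12.23 in the muscles. Glycogen synthase was crossed likewise, with Gys2 5.02 higher in liver and Gys1 differing by -4.29. The glucose transporter Slc2a2, of low affinity, was 4.94 higher in liver, and the insulin-responsive Slc2a4 differed by -3.14. Fructose bisphosphatase had Fbp1 4.93 higher in liver and Fbp2 at -2.80, and pyruvate kinase had Pklr 2.81 higher in liver and Pkm at -4.29. In each of these pairs both members passed. Smaller excesses of the liver form were measured for Pfkl (0.76) beside Pfkm (-5.04), Eno1 (0.97) beside Eno3 (-6.07), Pgam1 (1.30) beside Pgam2 (-6.57) and Ampd2 (1.00) beside Ampd1 (-6.74). The aspartate-glutamate carriers were nearly symmetric, with Slc25a13 4.42 higher in liver and Slc25a12 at -4.25. Elongation factor Eef1a1 was 1.65 higher in liver, and Eef1a2, the form of muscle and nerve, differed by -4.28.

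In the other 9 pairs the muscle form was higher in muscle and the liver form was not higher in liver. Of the genes set on the liver side of their pairs, Cox7a2 (-0.06, adjusted p = 0.708), Slc25a5 (0.20, adjusted p = 0.286), Pfkfb1 (0.25, adjusted p = 0.275) and Ckb (-0.15, adjusted p = 0.427) did not pass, nor did Atp2a2. Pfkfb1 averaged 9.5 in liver and 9.25 in muscle, so it does not stand for liver alone. The others were higher in muscle together with their partners. Pyruvate dehydrogenase kinase Pdk2 was at 9.24, 8.82 and 8.84 in the livers and 10.84, 10.64 and 10.59 in the muscles (difference -1.72, SE 0.12), beside Pdk4 at -5.14. The AMPK subunits Prkaa1 (-0.53) and Prkag1 (-0.37) and the insulin receptor substrate Irs2 (-0.44) differed less, and the calls of Prkag1 and Irs2 were lost without mouse 1 (adjusted p = 0.161 and 0.103) or mouse 2 (0.151 and 0.0532).

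**Figure D4:**
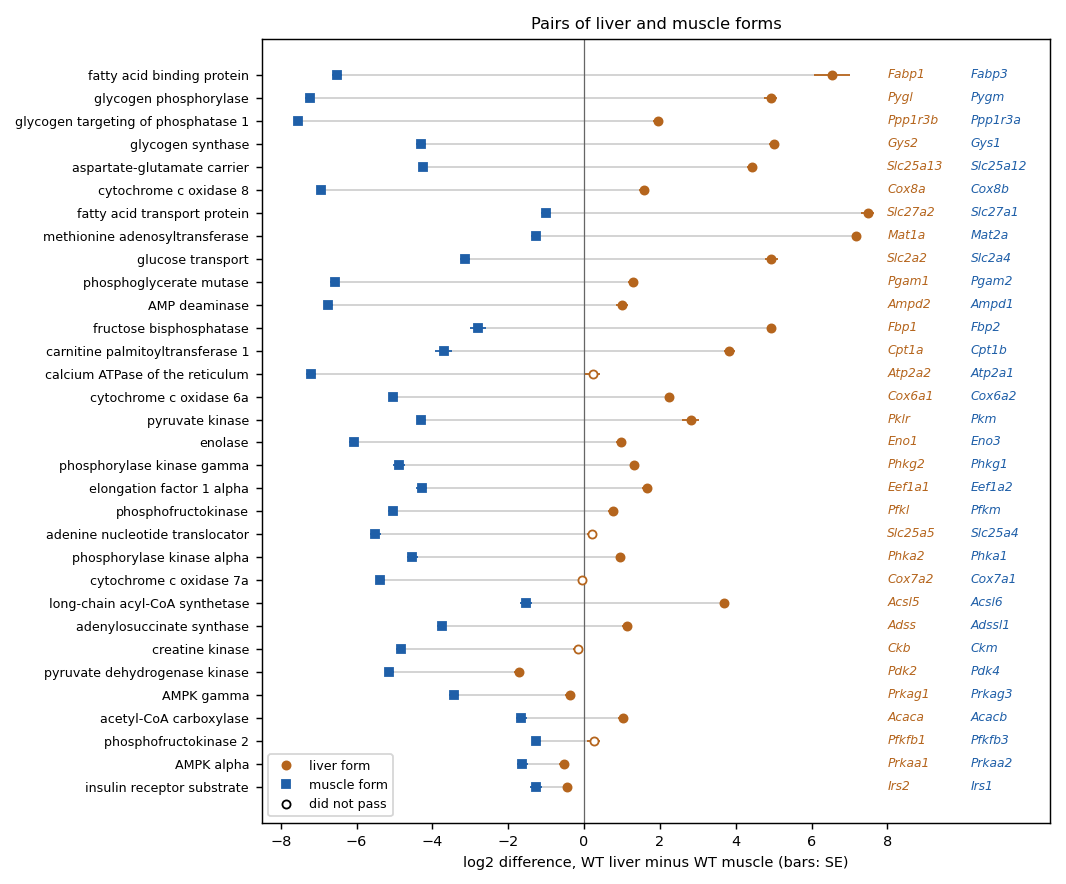
Log2 difference between WT liver and WT muscle for the liver form (circles) and the muscle form (squares) of 32 enzymes and transporters, with bars for the SE and open symbols for genes that did not pass. In 23 pairs filled symbols lie on opposite sides of 0, and in none is the muscle form higher in liver.

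Transcription factors of each lineage followed the tissue. Of 20 liver factors 17 were higher in liver, with a median of 2.28. The nuclear receptor Hnf4a, which is needed for hepatocyte identity, read 9.91, 9.81 and 9.88 in the livers and 5.05, 5.0 and 5.04 in the muscles (difference 4.84, SE 0.11, adjusted p = 9.97e-10). The bile acid receptor Nr1h4 (5.36), Nr5a2 (4.24) and Prox1 (3.90) were of like size, and Foxa2 (0.24, adjusted p = 0.206) and Atf5 (0.19, adjusted p = 0.25) did not pass. Of 20 muscle factors and coregulators 19 were higher in muscle, with a median of -1.86. Myf6, the myogenic factor that adult fibres keep, gave 4.57, 4.77 and 4.63 in the livers and 9.71, 9.75 and 9.40 in the muscles (difference -4.96, SE 0.12, adjusted p = 1.27e-09), close to Mef2c (-5.25), Eya1 (-5.05) and Eya4 (-4.21). Myocd, a factor of smooth and cardiac muscle, did not pass (-0.10, adjusted p = 0.548).

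Hormones, their receptors and secreted regulators were split. Of 16 liver hormones and regulators 12 were higher in liver, with a median of 3.02, such as Lect2 (5.02), Igfbp4 (3.62) and Igfbp2 (3.45). Angptl6 (0.20, adjusted p = 0.21) and Gdf15 (0.23, adjusted p = 0.156) did not pass. Of 14 muscle regulators 6 were higher in muscle and 1 in liver, with a median of -0.15 that was -0.24 without mouse 2. Myostatin (Mstn), which limits muscle mass, was at 4.41, 4.93 and 4.44 in the livers and 10.81, 11.12 and 11.13 in the muscles (difference -6.43, SE 0.13, adjusted p = 5.98e-10). Neuritin (Nrn1), which is best known from neurons, was on the liver side, at 10.92, 10.63 and 11.06 in the livers and 4.60, 5.02 and 4.98 in the muscles (difference 6.0, SE 0.15, adjusted p = 1.3e-09). Among 12 receptors and their substrates 6 were higher in liver and 4 in muscle. The glucagon receptor Gcgr read 9.16, 9.30 and 9.08 in the livers and 5.39, 5.35 and 5.26 in the muscles (difference 3.84, SE 0.11), followed by Egfr (3.55), the adrenergic receptor Adra1b (2.39) and the hepatocyte growth factor receptor Met (1.00). The insulin receptor Insr did not pass, at 9.65, 9.36 and 9.61 in the livers and 9.29, 9.0 and 9.45 in the muscles (difference 0.30, SE 0.12, adjusted p = 0.0701). The receptor Igf1r was higher in muscle, with 4.84, 4.97 and 4.97 in the livers and 6.75, 6.14 and 6.42 in the muscles (difference -1.51, SE 0.15), as were the thyroid hormone receptor Thra (-2.01) and the substrate Irs1 (-1.27).

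Basic machinery differed less than tissue programmes, with the secretory pathway as the exception. Of 48 cytosolic ribosomal protein genes 10 were higher in liver, 5 in muscle and 33 did not pass, with a median of -0.03, and the split was 6 to 6 when arrays were centred on these genes and 10 to 3 without mouse 1. Single members still differed, such as Rpl3 (1.52) and Rpl31 (-1.50). Of 30 proteasome subunits 12 were higher in muscle and none in liver, with a median of -0.33, the largest being Psmd2 and Psmd6 at -1.01. The count was 6 without mouse 1, 7 without mouse 2 (median -0.17) and 17 without mouse 3 (median -0.49). In the secretory pathway, which inserts and folds exported proteins, 29 of 36 genes were higher in liver and 2 in muscle, with a median of 1.08. The disulfide isomerase Pdia4 was at 9.38, 9.43 and 9.81 in the livers and 6.33, 6.41 and 6.50 in the muscles (difference 3.12, SE 0.12, adjusted p = 2.49e-08), followed by Pdia6 (2.48), the coat protein Sec24d (2.44) and the translocon channel Sec61a1 (2.32). Sar1b (-0.82) and Srp14 (-0.66) were higher in muscle.

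Genes often used as references were not even between the tissues. Of 15 such genes 6 were higher in liver and 7 in muscle. B2m (1.22), Ppia (1.19) and Actb (0.90) were higher in liver, and the transferrin receptor Tfrc (-2.50) and Pgk1 (-1.49) in muscle. Ywhaz (0.15, adjusted p = 0.36) and Tbp (0.30, adjusted p = 0.0701) did not pass. Of all genes 4862 differed by less than 0.1, and the 5 with the highest mean among them were the mitochondrially encoded COX1 (0.01) and ND1 (-0.04), Rpl4 (-0.08), Serinc3 (0.07) and the ubiquitin-conjugating enzyme Ube2d3, whose difference rounded to 0. COX1 read 12.69, 12.52 and 12.68 in the livers and 12.60, 12.53 and 12.72 in the muscles, close to the top of the scale.

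Ubiquitin ligases known from muscle atrophy were nearly all higher in muscle, and iron genes were split. Of 12 ubiquitin ligases and adaptors known from muscle, 11 were higher in muscle, with a median of -3.25. Klhl41 (-6.80), Asb5 (-5.71) and Asb15 (-4.89) led them, and Fbxo21 alone was higher in liver (1.66, SE 0.14). Among 21 genes of haem, iron and selenium 12 were higher in liver and 4 in muscle, with a median of 1.07. Transferrin (Trf) was at 12.37, 12.44 and 12.41 in the livers and 7.23, 6.61 and 6.87 in the muscles (difference 5.51, SE 0.15), and the iron-sensing receptor Tfr2 was 3.57 higher in liver. Hemojuvelin (Hjv), a coreceptor that induces hepcidin, was higher in muscle, at 7.14, 7.0 and 7.04 in the livers and 9.92, 9.58 and 9.67 in the muscles (difference -2.66, SE 0.11, adjusted p = 6e-08). The glutathione peroxidases were crossed, with the cellular Gpx1 at 3.71 and the plasma form Gpx3 at -3.10, and the small selenoprotein Selenow differed by -2.89.

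Position and imprinting also marked the tissues. Of 21 patterning genes 11 were higher in muscle and 2 in liver. Hoxc10 of the hind part of the body was at 4.43, 4.41 and 4.28 in the livers and 8.52, 8.46 and 8.39 in the muscles (difference -4.09, SE 0.11, adjusted p = 2.51e-09), with Hoxc8 (-2.16), Hoxc6 (-1.75) and Hoxd9 (-1.61) behind it. The endodermal factors Gata6 (1.51) and Gata4 (0.61) were the genes on the liver side. Of 15 imprinted growth genes 11 were higher in muscle and none in liver. H19, a noncoding RNA that is silenced in most tissues after birth, stood at 4.98, 4.97 and 4.92 in the livers and 9.26, 8.53 and 8.75 in the muscles (difference -3.89, SE 0.15), and the growth adaptor Grb10 differed by -1.96. Peg3 (-0.16, adjusted p = 0.392) and Peg10 (-0.14, adjusted p = 0.389) did not pass.

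Markers of other cells differed between the tissues. Among Kupffer cell and macrophage markers 9 of 14 were higher in liver and none in muscle, with a median of 0.61. The liver count was 5 without mouse 1, 6 without mouse 2 and 11 without mouse 3, and 1 marker was higher in muscle without mouse 2 or 3 and under ribosomal centring. Vsig4, a complement receptor of Kupffer cells, was at 10.22, 10.10 and 9.83 in the livers and 5.18, 5.07 and 5.50 in the muscles (difference 4.80, SE 0.16), and Clec4f (1.99) and Cd5l (1.85) followed, while the general macrophage gene Lyz2 did not pass (-0.36, adjusted p = 0.103). Sinusoidal endothelium was higher in liver for 7 of 8 markers, for instance Dnase1l3 (3.80) and Clec4g (3.17), and Lyve1, which lymphatic vessels share, was higher in muscle (-0.93). General endothelium was higher in muscle for 7 of 10 markers, with Emcn (-2.25) and Pecam1 (-1.61), and smooth muscle and pericyte genes for 8 of 9, with Acta2 (-2.83) and Myh11 (-2.33) beside desmin, which muscle fibres also express. Of 14 matrix genes 12 were higher in muscle, with a median of -1.09. Fibronectin (Fn1), which hepatocytes secrete into plasma, was higher in liver (2.86, SE 0.13). Of 8 adipocyte markers 3 were higher in muscle, and adiponectin (Adipoq) gave 4.65, 4.59 and 4.44 in the livers and 5.50, 6.14 and 6.18 in the muscles (difference -1.38, SE 0.17). Leptin (Lep) did not pass (0.26, adjusted p = 0.104). Few markers of lymphocytes (2 of 9), neutrophils (1 of 7), cholangiocytes (1 of 6) and none of 3 erythroid markers passed, and no neutrophil marker did without mouse 1 or mouse 2. The means of the lymphocyte, neutrophil and cholangiocyte lists in the muscles were under 5, a level at which expression was not shown. The part of these cells in the differences was not tested.

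The liver of mouse 2 differed from the other livers in acute phase genes, which the liver induces in inflammation. Saa1 read 7.39, 12.34 and 9.69 in the livers and 5.45, 5.53 and 4.76 in the muscles, a difference of 4.56 (SE 0.67, adjusted p = 0.000404). Saa2 read 5.89, 12.40 and 7.90 in the livers, and Saa3 5.71, 11.67 and 6.77. The iron-binding lipocalin Lcn2 read 5.76, 11.72 and 6.86 in the livers and 4.76, 6.66 and 5.34 in the muscles, so mouse 2 was highest in both tissues. Orm2, an acid glycoprotein, read 6.29, 10.60 and 7.17 in the livers. These were the 5 genes with the largest SD among the livers. Without mouse 2 the difference was 3.43 for Saa1 in place of 4.56, 2.40 for Saa2 in place of 4.16, 1.28 for Saa3 in place of 3.02, 1.25 for Lcn2 in place of 2.52 and 1.03 for Orm2 in place of 2.27, all still past the threshold. Without the mouse as a block Saa3 (adjusted p = 0.0559) and Lcn2 (adjusted p = 0.119) were not called. Serum amyloid Saa4, which is known as the constitutive form, gave 11.39, 11.60 and 12.00 in the livers. An inflammatory state of mouse 2 was not tested.

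Mouse 3 differed in clock genes in both tissues. Arntl, the activator of the clock, was at 5.12, 5.14 and 5.81 in the livers and 5.78, 5.73 and 6.90 in the muscles, and Per2, one of its repressors, at 7.29, 7.09 and 6.66 in the livers and 7.13, 6.84 and 6.17 in the muscles. Mouse 3 was thus highest for Arntl and lowest for Per2 in both tissues. The difference for Arntl was -0.78 (SE 0.13, adjusted p = 0.00103) with the mouse as a block. It was -0.63 without mouse 3 (adjusted p = 0.00257), and it was not called without the block (adjusted p = 0.0537). Ciart, another repressor, was at 7.93, 8.01 and 7.86 in the livers and 7.40, 7.93 and 5.88 in the muscles, and its call (0.86, adjusted p = 0.0399) was lost without mouse 3 (0.30, adjusted p = 0.142). Of 18 clock genes 2 were higher in liver and 7 in muscle, with a median of -0.20. The counts were 1 and 8 without mouse 3, but 2 and 4 without mouse 1 and also without mouse 2, where the median was -0.08. The nuclear receptors of the Nr4a family, which respond rapidly to calcium and adrenergic signals, were higher in muscle and lowest in the muscle of mouse 3. Nr4a1 gave 5.27, 5.26 and 4.81 in the livers and 9.32, 9.09 and 7.70 in the muscles (difference -3.59, SE 0.20), and Nr4a2 5.10, 5.02 and 5.10 in the livers and 7.05, 6.79 and 5.57 in the muscles (difference -1.40, SE 0.25). Without mouse 3 their differences were -3.94 and -1.87. Among 24 genes of the immediate early and stress response, 15 had higher values in muscle and 1, Ier2 (0.64), in liver. In the liver of mouse 3 the elongase Elovl3 read 9.81, against 7.71 and 7.50 in mice 1 and 2, Sqle 9.44 against 8.46 and 8.33, and Idi1 10.59 against 9.40 and 9.56. Without mouse 3 the differences were 3.31 for Elovl3, 3.26 for Sqle and 3.71 for Idi1, which were 3.98, 3.59 and 4.07 with all mice. The time of day at which each mouse was killed was not analysed here.

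The MKR mice allowed the same difference to be measured in 3 other animals. Of 8345 genes called in WT mice, 6705 were called in MKR mice in the same direction and 21 in the opposite direction, and of 3466 genes called at 2-fold in WT mice 3429 were called in MKR mice in the same direction. The difference itself differed between the genotypes for 32 genes (0.157%) at an adjusted p under 0.05 in limma over 12 arrays. That count depended on single mice and on the fit. It was 12, 8 and 25 without WT mice 1, 2 and 3 and 18, 12 and 20 without MKR mice 1, 2 and 3, and it was 14 with the median of probe sets and 0 without moderation. The malic enzyme Me3, which is mitochondrial, was the largest. In MKR mice it read 4.70, 4.84 and 4.77 in the livers and 4.93, 4.83 and 4.82 in the muscles, against 4.91, 4.87 and 4.80 in the livers and 8.30, 8.15 and 7.79 in the muscles of WT mice. The liver to muscle difference was thus -0.09 in MKR and -3.22 in WT mice (adjusted p = 2.21e-05). The thick filament gene Mybph was likewise at 5.57, 5.75 and 5.70 in MKR muscles and 8.03, 8.26 and 7.93 in WT muscles, and the retinal dehydrogenase Aldh1a1 at 7.93, 7.58 and 8.40 in MKR muscles and 10.09, 9.93 and 9.66 in WT muscles. Igf1r moved the other way, with 8.53, 8.32 and 8.51 in MKR muscles and 6.75, 6.14 and 6.42 in WT muscles, which is the receptor gene that the MKR model alters. The nuclear receptor Nr4a3 was at 7.73, 8.10 and 7.86 in MKR muscles and 6.14, 5.61 and 5.13 in WT muscles. For each of these genes the muscles of the genotypes did not overlap. The genes were picked for large called differences in these same arrays, so that separation adds no evidence. Of the 32 genes 20 had a more positive difference in MKR mice.

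**Figure D5:**
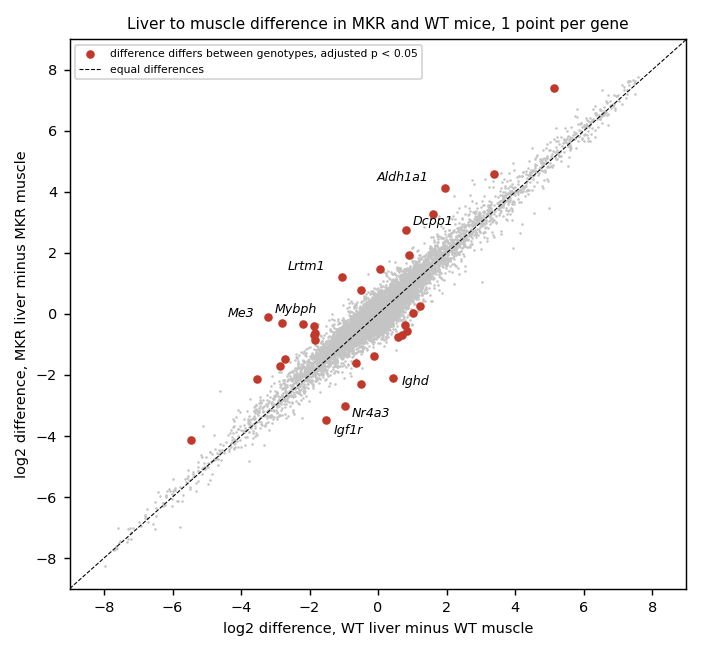
Liver minus muscle difference of every gene in MKR mice (vertical axis) against that in WT mice (horizontal axis), both in log2 units, with red points for the 32 genes whose difference differed between the genotypes at an adjusted p under 0.05 and a dashed line for equal differences. Me3 lies above the line at -0.09 in MKR and -3.22 in WT mice, and Igf1r below it at -3.47 in MKR and -1.51 in WT mice.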

How the data were processed

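RNA from flash-frozen liver and muscle of 3 WT mice was hybridised to Affymetrix Mouse Gene 1.0 ST arrays. RMA with quantile normalization was run by the authors in Partek 6.3, per the submitters' processing notes, and the values they deposited are on a log2 scale. They run from 1.52 to 3.82 over 241419 probe sets, where log2 intensities that were transformed to log2 again would lie. The authors do not state such a second transformation, which was read from the range alone, and the deposited column was therefore raised back as a power of 2 to give log2 intensities of 2.87 to 14.15. RMA brings all arrays to one distribution, so a difference is relative to the other genes of the array. Probe sets with exactly 1 gene symbol (212138, a median of 8 per gene) were averaged per gene, and 4672 with several and 24609 with no symbol were left out. Old symbols were matched to GRCm38.p6 names, with 17626 current, 2743 updated and 53 kept. No genes were filtered. Background and detection calls were not analysed here, and the number of arrays limits the precision.

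Liver was compared with muscle in limma 3.58.1 (R 4.3.3) with the mouse as a fixed block, empirical Bayes moderation (2 residual and 7.11 prior degrees of freedom) and Benjamini-Hochberg adjustment at 0.05. The pairing comes from the animal numbers in the labels, and the deviations of liver and muscle of the same mouse correlated at 0.19, 0.11 and -0.03. The MKR and WT differences were compared in the same way over 12 arrays. Members and gene lists were chosen with earlier results of these data known. The named genes are the 20 largest differences in each direction with no overlap of tissues, up to 4 members per direction and list, up to 2 that missed the threshold, exceptions, all isozyme pairs, the 5 brightest genes that differed by under 0.1, the 5 largest SDs per tissue and the 5 largest differences between genotypes in each direction. Olfactory receptors, predicted and RIKEN genes, and genes of microRNAs or small nucleolar RNAs were not named. Tested on simulated data for liver against muscle with 20358 genes, the method recovered 3, 49, 50 and 50 of 50 genes shifted by 0.5, 1, 2 and 4, with 11 false calls. In that simulation few genes were shifted and the noise was drawn from limma's fitted prior. In the data 41.0% of genes were called and single arrays stood apart, so the recovery and false calls hold for the simulated setting only. Alternatives to the block, arrays, probe set summary, dim genes, scale, normalization, moderation and threshold, and each mouse left out, are given in the closing section. Tables, promoters and figures were made with Python 3.11.15, pandas 2.3.3, numpy 2.4.6 and matplotlib 3.10.9.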

Additional observations from a re-analysis of the deposited data

Results flagged for a closer look

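The difference between liver and muscle was itself different between the genotypes for the genes below, by limma's test of the difference of differences with adjustment over all genes, and each value is MKR minus WT of the liver minus muscle difference. Me3 (3.13), Mybph (2.49), Lrtm1 (2.26), Aldh1a1 (2.16) and Dcpp1 (1.94) had the most positive values. Ighd (-2.53), Nr4a3 (-2.06), Igf1r (-1.96), Aqp12 (-1.37) and Htra4 (-1.26) had the most negative ones. Ighd, an immunoglobulin heavy chain gene with 1 probe set, read 4.93, 6.43 and 5.83 in MKR muscles and 3.81, 3.81 and 3.91 in WT muscles. Dcpp1, also with 1 probe set, read 4.31, 4.09 and 4.51 in MKR muscles and 6.31, 4.60 and 5.82 in WT muscles. Predicted and RIKEN genes among the 32 were not named.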

How the results depend on the processing

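Counts of calls moved little under most settings. Without moderation the counts fell to 1311 in liver and 1288 in muscle (988 and 927 at 2-fold), and limma's treat against a difference of 1 gave 1210 and 1072, since that test asks for more than the size of the difference. With 212138 probe sets in place of genes there were 24838 and 30772 calls (22193 and 27477 at 2-fold). Without each mouse in turn the counts ran from 3114 to 3840 in liver and 3633 to 4463 in muscle. Without the replicate block they were 3783 and 4395, and 36 for the test between genotypes. Centring on ribosomal protein genes, which shifts the median difference by -0.12, gave 2785 and 5137. All other settings gave between 2684 and 4031 in liver and 3170 and 4871 in muscle.

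The test between genotypes was less stable. It called 14 genes with the median of probe sets, 0 without moderation in limma (2180 at an unadjusted p under 0.05, against 2733 with moderation) and 8 (without WT mouse 2) to 25 (without WT mouse 3) without 1 mouse. The causes were not tested. Pdlim5 was 0.98 under the median of probe sets. Ketone body use had a median from -0.09 to 0.43 without each mouse in turn, with -0.09 without mouse 3, against 0.24 with all mice. The 5 nerve and Schwann cell markers had a median of 0.08, which was -0.05 under ribosomal centring, -0.04 under the median of probe sets and from -0.07 to 0.14 without each mouse in turn, with -0.07 without mouse 1.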

Other observations

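Some genes had probe sets on both sides of the comparison, which the mean over a gene hides. By a rule chosen after the values were seen, 14 genes had at least 3 probe sets, and at least 10% of their probe sets, past 2-fold in each direction. Pdlim5, a Z-disc protein with PDZ and LIM domains, had 6 of 12 probe sets higher in liver and 5 higher in muscle, from -3.91 to 2.33, against a gene value of -0.27. Asph, whose gene encodes both an aspartate hydroxylase and the junctional protein junctin, had 6 of 36 higher in liver and 7 in muscle, from -5.83 to 1.48, with a gene value of -0.36. Epb41l4b, a gene of the band 4.1 family, had 12 of 26 higher in liver and 4 in muscle, from -4.24 to 3.82, with a gene value of 0.88. The gene value passed the threshold for 5 of the 14 genes. Exon use was not tested.

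Among 29281 probe sets with no symbol or several, which entered no comparison above, 2169 (7.4%) were at least 2-fold higher in liver and 1815 (6.2%) in muscle by the same test.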
